A study of Mus musculus with 6 samples.

Results

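The clustered protocadherins are cell surface adhesion proteins encoded by the neighbouring Pcdha (alpha), Pcdhb (beta) and Pcdhg (gamma) gene clusters. Members were chosen by symbol alone, as every gene of the count table whose symbol begins with Pcdha, Pcdhb, Pcdhga, Pcdhgb or Pcdhgc. The rule kept 58 of 55471 genes, 14 in the alpha, 22 in the beta and 22 in the gamma cluster. All lie on the plus strand of mouse chromosome 18 (GRCm38), from 36930184, the start of Pcdha1, to 37841873, the end of the gamma cluster. The annotation gives 57 of them as protein coding and Pcdhgb8 as a polymorphic pseudogene, and 2 gene identifiers carry the symbol Pcdha11.

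RNA-seq was done on total RNA from the hippocampus of 6 C57BL/6 mice, 1 library per mouse. The 3 p300-ifKO mice carry floxed Ep300, the gene of the histone acetyltransferase p300, together with the Camk2a-creERT2 transgene, which expresses a tamoxifen-dependent Cre recombinase in excitatory neurons of the forebrain. The 3 controls were littermates. The labels give an age of 3 to 6 months. All 6 mice, controls included, were treated with tamoxifen as adults, in 5 intragastric doses of a 20 mg/ml solution in corn oil, and the methods of the study place the RNA about a month after the ablation. Both the treatment text of the labels and the methods of the study give controls that lack creERT2, although the driver is named in the entry of every control library. Because the driver is confined to excitatory neurons and the tissue was taken whole, interneurons, glia and vessels keep intact Ep300, and a lower level in such bulk RNA cannot separate fewer cells of a type from less RNA per cell.

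In the alpha and gamma clusters each variable first exon has its own promoter and is spliced to constant exons that all members of the cluster share, so promoter choice decides which extracellular domain a neuron displays. Beta genes consist of a variable exon without constant exons. The chosen isoforms bind their own kind across cell membranes and serve the self-avoidance of dendrites and axons, neuronal survival and synapse formation. Promoter choice among the alternate isoforms is largely stochastic in each neuron and depends on CTCF, cohesin and distant enhancers, whereas the C-type isoforms (Pcdhac1, Pcdhac2, Pcdhgc3, Pcdhgc4 and Pcdhgc5) follow more regular, cell type-dependent patterns.

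Values below are normalized counts, meaning reads counted per gene and divided by the size factor of the library. The libraries held between 23151568 and 28433823 counts, of which the 58 members took 0.041%. The targeted gene, Ep300, had 1545, 1474 and 2334 normalized counts in controls and 478, 1350.2 and 912 in p300-ifKOs. Every p300-ifKO mouse lay below every control, and p300-ifKO replicate 2 lay closest to them. DESeq2 put the change at −0.97 (SE 0.33) in log2 units, unadjusted p 0.0037 and adjusted p 0.991. The paper describes the p300 protein left in these mice as truncated and without acetyltransferase activity. Whether the Ep300 count tracks the extent of ablation was not tested. The 6 markers of hippocampal excitatory neurons were all present, with summed levels of 142592 to 163828 in control and 139263 to 167867 in p300-ifKO mice. The p300-ifKO replicate 1 library stood apart: over 17071 genes with a mean normalized count of at least 10, Spearman's rho between exonic length and the deviation of the gene from its mean was −0.49 there, against −0.23 in p300-ifKO replicate 3 and between 0.19 and 0.44 in the other 4 libraries. This trend was seen after normalization, and cluster medians and the fold changes of named members are given with and without this library. The p300-ifKO replicates kept the same order, 1, 3 and 2, by Ep300 level and by this rho, and whether the trend shifted Ep300 was not tested.

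How reads were assigned decides what each value stands for. The exonic length in the table was identical to that in the annotation for 58 of 58 members, with the shared 3′ exons included. Of 1224 genes in the table without an exonic base of their own on either strand, 1221 had 0 counts in all 6 libraries. Among them, 261 genes had at least 200 bases free of other genes on their own strand, and 260 of these also had 0 counts. Reads in exons of more than 1 gene, on either strand, were therefore left out of the counts, and the values of alpha and gamma members come from sequence outside the shared exons. A median of 46.4% of the exonic sequence was free of other genes for alpha members, 54.7% for gamma members and all of it, 100%, for beta members. Transcripts of the alpha cluster continued for 2860.0 bases after the first exon, and those of gamma members for 2116 to 2119 bases.

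The smallest shares of own sequence remained for 3 members. Pcdhga10 (ENSMUSG00000102222, 37746993 to 37841873) had 0 bases outside genes of either strand, although 2613 bases were free on its own strand, and its count was 0 in every library, so its level is unknown. Pcdha4 (ENSMUSG00000104252) kept 404 of 5768 bases and the second gene called Pcdha11 (ENSMUSG00000102206) kept 1268 of 7535, and their highest values were 2.10 and 1.77 normalized counts. In all, 13 members lost part of their own sequence to genes on the opposite strand, among them Pcdhgc3, Pcdhga11 and Pcdha12. Sequence near-identical to other genes was counted as well. Of the stretches of 50 bases, the read length, in the own sequence of a member, a median of 14.8% recurred in exons of other genes for the alternate alpha isoforms, 9.18% for gamma-B, 3.33% for beta, 0.601% for gamma-A and 0% for C-type members. The largest share was 25.5% in Pcdha7. Such stretches can lower the count of a member, because reads that match several places were removed.

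A mean of at least 10 normalized counts was reached by 53 members, 11 alpha, 21 beta and 21 gamma. The other 5 were Pcdha4, Pcdha8, the second Pcdha11, Pcdhb1 and Pcdhga10. Levels of different members are compared per kilobase of own sequence, as mean ± SD over all 6 libraries. C-type members held 3 of the 4 highest levels. Pcdhgc5 (37819513 to 37841873), known to bind GABA type A receptors, had 380.5 ± 144 normalized counts per kilobase and Pcdhgc3 274 ± 73.6, and these 2 overlapped within their SDs. Compared within each library, Pcdhgc5 was the higher except in p300-ifKO replicate 1, where it had 127 against 136 for Pcdhgc3. Pcdhac2 (37143503 to 37187657), which organizes the spacing of serotonergic axons, had 168 ± 77.1, close to Pcdhga11 with 182 ± 51.2. Pcdhgc4, the isoform needed for the survival of many neurons, had 66.5 ± 25.3 and Pcdhac1 had 20.7 ± 8.69.

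Among the alternate isoforms, those of the alpha cluster had the lowest median. The 9 alternate alpha members with a mean of at least 10 ranged from 6.55 (Pcdha1) to 39.8 (Pcdha12) normalized counts per kilobase, with a median of 16.3. Beta members had a median of 29.0 and ranged from 8.99 (Pcdhb21) to 147 (Pcdhb9). Gamma-A members had a median of 100.2, between 43.3 (Pcdhga9) and 182 (Pcdhga11), and gamma-B members 45.6, between 11.4 (Pcdhgb8) and 82.3 (Pcdhgb6). The whole exonic length in place of own sequence also counts the shared exons that yielded no reads. With it the highest values were 229.8 for Pcdhgc5, 147 for Pcdhb9, 90.6 for Pcdhgc3 and 86.2 for Pcdhac2, in normalized counts per kilobase. Pcdhga11 then came to 48.1, below Pcdhga2 at 68.6.

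**Figure D1:**
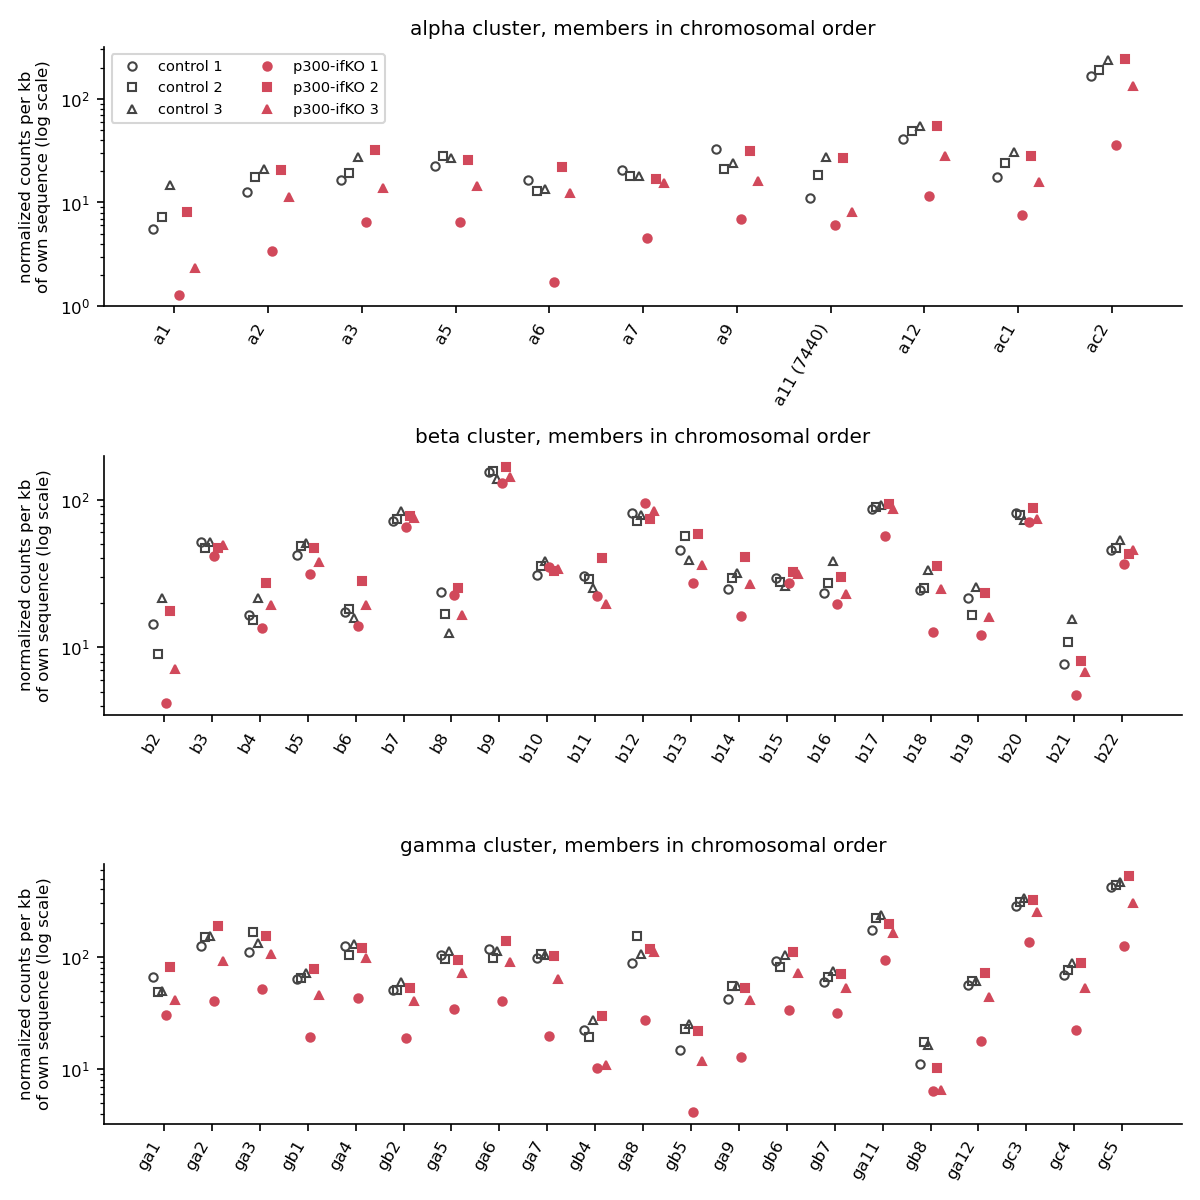
Level of each member with a mean of at least 10 normalized counts, in normalized counts per kilobase of own sequence on a log axis, in each control library (open symbols) and p300-ifKO library (filled symbols), with a panel per cluster. Pcdhgc5 reached a mean of 380.5 and Pcdha1 of 6.55, and the filled circle of p300-ifKO replicate 1 was the lowest point for every alpha and gamma member shown.

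Whether loss of p300 altered these genes was asked by comparing 3 p300-ifKO with 3 control mice. If controls lack creERT2, as the methods give, effects of the Camk2a-creERT2 transgene and of Ep300 loss cannot be told apart. The paper reports only Arsi and Esr1 as changed in p300-ifKOs and ascribes both to that transgene. In DESeq2, 0 of the 57 members with a p had an adjusted p under 0.05, where 0.0061% of the 32773 genes tested did. At an unadjusted p under 0.05 there were 2 members, Pcdhga5 and Pcdhgb8, both lower in p300-ifKO mice, beside 1.32% of all genes tested in either direction and 0.546% lower. The edgeR quasi-likelihood test likewise gave 0 members at an adjusted p under 0.05, beside 0.0117% of genes, and 2 of 53 at an unadjusted p under 0.05, Pcdhb21 and Pcdhgb8, beside 2.30% of genes. The fold changes nevertheless lay mostly on one side. The log2 fold change was below zero for 14 of 14 alpha, 17 of 22 beta and 21 of 21 gamma members, beside 54.7% of all genes tested, and for 48 of the 53 members with a mean of at least 10, beside 50.7% of such genes. Median log2 fold changes were −0.57 for alpha, −0.11 for beta, −0.45 for gamma and −0.48 for C-type members, beside −0.046 over all genes tested. The median SE was 0.52 for alpha, 0.27 for beta and 0.39 for gamma members, so for most members the fold change was not much larger than its error.

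**Figure D2:**
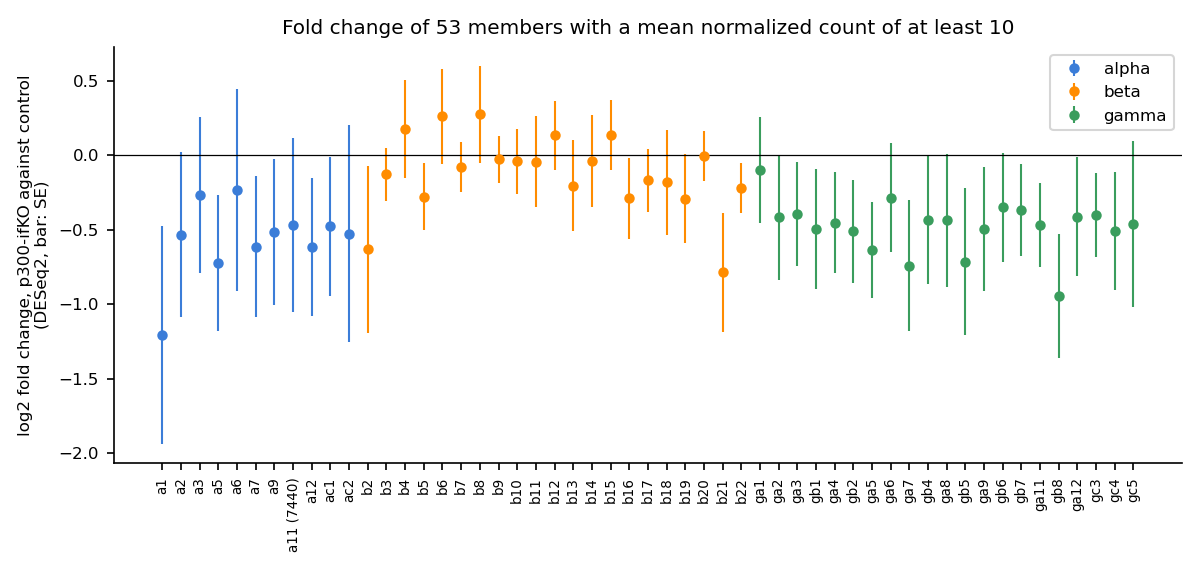
DESeq2 log2 fold change of p300-ifKO against control (points) with its SE (bars) for the 53 members with a mean of at least 10 normalized counts, in chromosomal order and coloured by cluster. Alpha points lie between −1.20 and −0.24, gamma points between −0.95 and −0.10, and beta points on both sides of zero, between −0.79 and 0.27.

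The summed level of each cluster showed which mice carried these differences. The alpha cluster summed to 957, 1084 and 1338 normalized counts in controls and 241, 1356 and 718 in p300-ifKOs. The gamma cluster summed to 6134, 6643 and 6995 normalized counts in controls and 2162, 7467 and 4812 in p300-ifKOs. The beta cluster summed to 3501, 3575 and 3777 normalized counts in controls and 2728, 4032 and 3304 in p300-ifKOs. In every cluster p300-ifKO replicate 1 was lowest and p300-ifKO replicate 2 highest of all 6 mice, so the groups overlapped. Group means were 1126 ± 194 and 772 ± 559.9 (SD, n = 3 each) for alpha, 6591 ± 433 and 4814 ± 2653 (SD, n = 3 each) for gamma and 3618 ± 143 and 3355 ± 654 (SD, n = 3 each) for beta. In each cluster the difference between the means was smaller than the SD of the p300-ifKO mice. Relative to the control mean, p300-ifKO replicate 1 held 21.4% of the alpha, 32.8% of the gamma and 75.4% of the beta level, while p300-ifKO replicate 3 held 63.7%, 73.0% and 91.3% and p300-ifKO replicate 2 120.4%, 113% and 111%. Leaving out p300-ifKO replicate 1, the p300-ifKO means rose to 1037, 6139.7 and 3668 normalized counts. The reads behind the sums numbered 224 to 1535 per library for alpha, 2540 to 4563 for beta and 2013 to 8450 for gamma.

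Member by member, p300-ifKO replicate 1 was the lowest library for 11 of 11 alpha, 21 of 21 gamma and 16 of 21 beta members with a mean of at least 10, beside 37.8% of all 17071 such genes. The beta members for which another library was lowest included Pcdhb12 and Pcdhb8. As log2 ratio to the mean of the 6 libraries, the median in p300-ifKO replicate 1 was −1.74 for alpha, −1.30 for gamma and −0.42 for beta members, and −0.0091 for all 17071 genes. The alpha members lay between −2.76 and −1.41 and the gamma members between −2.06 and −0.80, while the beta members spread from −1.52 (Pcdhb2) to 0.24 (Pcdhb12). Long genes as a class were lower in this library too. Among 4253 genes with a mean of at least 10 and an exonic length of 4615 to 7627 bases, a range that spans the alpha and gamma members, the median was −0.13 and 50.2% had their lowest value in p300-ifKO replicate 1. Beta members are shorter in part, and GC content differed as well, with a median of 46.1% in the own sequence of beta members against 52.9% for alpha and 52.5% for gamma members. When smooth length and GC offsets were fitted for each library, the median log2 fold changes were −0.49 for alpha, −0.070 for beta and −0.44 for gamma members. Without offsets they were −0.53, −0.082 and −0.45 for members with a mean of at least 10. The offsets used the whole exonic length and the GC content of the longest transcript, not those of own sequence. An effect of the position of own sequence along the transcript was not tested.

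**Figure D3:**
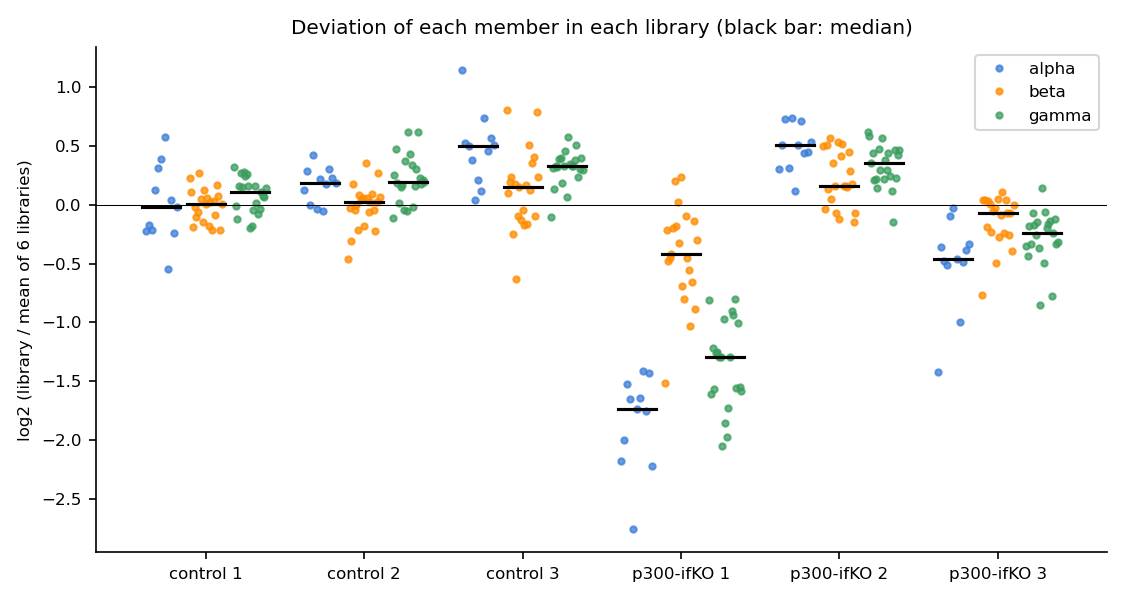
Log2 ratio of each member to its mean over the 6 libraries, shown for each library and coloured by cluster, with the median of each cluster as a black bar (members with a mean of at least 10 normalized counts). In p300-ifKO replicate 1 the medians are −1.74 (alpha), −0.42 (beta) and −1.30 (gamma), and in p300-ifKO replicate 3 −0.46, −0.072 and −0.24.

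Leaving out single p300-ifKO mice changed the picture. Without p300-ifKO replicate 1, DESeq2 gave 0 members with an adjusted p under 0.05 (0.0062% of genes) and 0 at an unadjusted p under 0.05 (0.413% of genes), and the medians shrank to −0.16 for alpha, −0.12 for gamma and −0.13 for C-type members and turned to 0.014 for beta. Without p300-ifKO replicate 2, the medians were −1.24 for alpha, −0.89 for gamma, −1.04 for C-type and −0.27 for beta members. DESeq2 then called 926 genes, 2.89% of those tested, of which 444 (1.39%) were lower, and 6 gamma members, all lower: Pcdhga2, Pcdhgb1, Pcdhga5, Pcdhga7, Pcdhga12 and Pcdhgc4. Their log2 fold changes lay between −1.30 (Pcdhga7) and −0.94 (Pcdhga12), with adjusted p between 0.0203 and 0.0453 in DESeq2. That fit gave an adjusted p to 27 of the 57 members, because its filter on low means set the others aside. The 2.89% is a share of all 32019 genes with a p. In that fit Spearman's rho with exonic length was −0.49 and −0.23 in the p300-ifKO libraries and 0.21, 0.19 and 0.43 in the controls. Genotype and length trend therefore cannot be told apart in it. Adding 1 surrogate variable, a factor estimated from the data, brought the medians to −0.13 for alpha, 0.030 for beta and −0.056 for gamma members.

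The C-type isoforms illustrate the spread. Pcdhgc5 had 1933, 2006 and 2156 normalized counts in controls and 583, 2427 and 1409 in p300-ifKOs, and Pcdhac2 had 500.1, 576 and 721 normalized counts in controls and 108, 736 and 403 in p300-ifKOs. For both, p300-ifKO replicate 2 was the highest mouse and p300-ifKO replicate 1 the lowest, with values of the 2 groups overlapping. The DESeq2 log2 fold changes were −0.46 (SE 0.56) and −0.53 (SE 0.73), with adjusted p of 0.991 each, and shrank to −0.084 and −0.074 when p300-ifKO replicate 1 was left out. The final DESeq2 dispersion of Pcdhac2 was 14.6 times, and that of Pcdhgc5 10.5 times, the trend for genes of the same level. The ratio for Pcdhgc4 was 3.20, and the median was 0.696 over 17071 genes. By cluster, medians of this ratio were 1.92 for alpha, 2.63 for gamma and 0.886 for beta members. DESeq2 shrinks most dispersions towards the trend but not those far above it, so these ratios do not rank members by spread. Pcdhgc3 had 524, 563 and 615 normalized counts in controls and 248, 582 and 457 in p300-ifKOs, with a log2 fold change of −0.40 (SE 0.28). Pcdhgc4 had 243, 267 and 305 normalized counts in controls and 78.4, 310.2 and 183 in p300-ifKOs, with −0.51 (SE 0.39). Pcdhac1 was at a lower level, with 44.7, 62.0 and 78.6 normalized counts in controls and 19.3, 72.5 and 40.5 in p300-ifKOs and a log2 fold change of −0.48 (SE 0.46). All 3 again overlapped between the groups, and without p300-ifKO replicate 1 the fold changes were −0.13 for Pcdhgc3, −0.14 for Pcdhgc4 and −0.13 for Pcdhac1.

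Although the levels differed between mice by several fold, the mix of isoforms within the alpha and gamma clusters differed less. Pcdhgc5 made up 27.0% of gamma counts in p300-ifKO replicate 1 (Wilson 95% interval 25.1 to 29.0) and between 29.3% and 32.5% in the other 5 mice. Pcdhgc3 took 11.5% there (10.2 to 12.9) and 7.80% in p300-ifKO replicate 2 (7.25 to 8.39). Gamma-A members together took 43.2% (41.0 to 45.3) and gamma-B members 14.8% (13.3 to 16.4) in p300-ifKO replicate 1. Across all 6 mice, gamma-A stayed between 41.5% and 44.4% and gamma-B between 12.9% and 14.8%. Pcdhac2 made up 45.1% of alpha counts in p300-ifKO replicate 1 (38.7 to 51.6) and between 52.3% and 56.2% in the others. These intervals cover counting error only. What did move was the balance between clusters: beta members took 53.2% (51.8 to 54.6) of all clustered protocadherin counts in p300-ifKO replicate 1, 37.4% in p300-ifKO replicate 3 and between 31.2% and 33.1% in the other 4 mice.

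**Figure D4:**
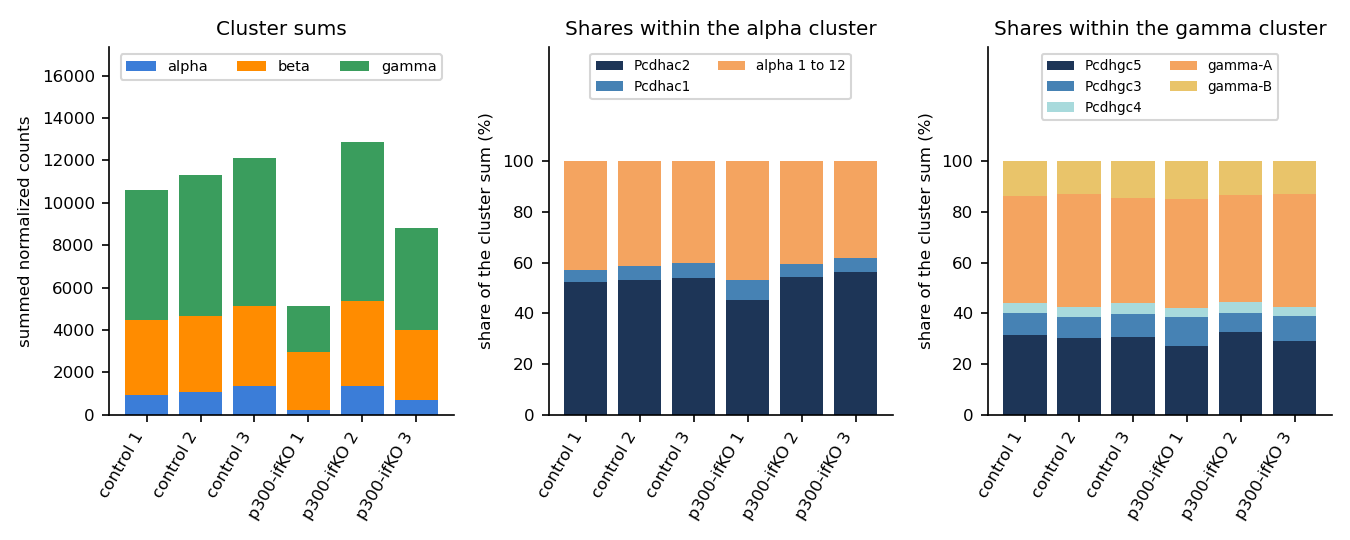
Summed normalized counts of the alpha, beta and gamma clusters in each library (left, stacked bars), and the share of each isoform or isoform group in the alpha (middle) and gamma (right) sum of the same library, in percent. The gamma sum runs from 2162 to 7467 from p300-ifKO replicate 1 to 2, while the share of Pcdhgc5 in it runs from 27.0% to 32.5%.

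In the gamma-A group, Pcdhga5 (37694380 to 37841873) had 263, 244 and 287 normalized counts in controls and 88.1, 239 and 182 in p300-ifKOs. Every p300-ifKO mouse lay below every control mouse, by the least for p300-ifKO replicate 2. The log2 fold change of −0.64 (SE 0.32) reached an unadjusted p of 0.0478, or an adjusted p of 0.991, in DESeq2. Pcdhga7 had 254, 274 and 266 normalized counts in controls and 50.5, 259.8 and 164 in p300-ifKOs, with p300-ifKO replicate 2 inside the control range, and a log2 fold change of −0.74 (SE 0.44). The gamma-A members highest per kilobase of own sequence were Pcdhga11, with 217, 283 and 298 normalized counts in controls and 119, 247 and 207 in p300-ifKOs, and Pcdhga2, with 320.2, 385 and 399 normalized counts in controls and 105, 482 and 238 in p300-ifKOs. Both overlapped between groups, and their log2 fold changes were −0.47 (SE 0.28) and −0.42 (SE 0.42). Without p300-ifKO replicate 1 the values were −0.33 for Pcdhga5, −0.32 for Pcdhga7, −0.23 for Pcdhga11 and −0.030 for Pcdhga2.

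In the gamma-B group, Pcdhgb8 (37761801 to 37841870), the polymorphic pseudogene, had 27.8, 44.1 and 40.8 normalized counts in controls and 16.1, 25.6 and 16.4 in p300-ifKOs. The groups did not overlap, and the log2 fold change of −0.95 (SE 0.42), on few reads per mouse, reached an unadjusted p of 0.0229, or an adjusted p of 0.991, in DESeq2. Pcdhgb2 had 140.2, 139.7 and 165 normalized counts in controls and 52.6, 147 and 112 in p300-ifKOs and a log2 fold change of −0.51 (SE 0.34). Pcdhgb6 and Pcdhgb7, the highest of the group per kilobase of own sequence, had log2 fold changes of −0.35 (SE 0.36) and −0.37 (SE 0.31). Pcdhgb6 ranged from 85.9 to 286 normalized counts, with p300-ifKO replicates 1 and 2 as the lowest and the highest mouse. Leaving out p300-ifKO replicate 1 gave −0.84 for Pcdhgb8, −0.20 for Pcdhgb2, −0.0086 for Pcdhgb6 and −0.12 for Pcdhgb7.

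Among the alternate alpha isoforms, Pcdha12 (37020149 to 37187657) had 79.5, 95.6 and 106 normalized counts in controls and 22.6, 105 and 55.0 in p300-ifKOs and Pcdha9 had 81.5, 52.5 and 59.2 normalized counts in controls and 17.2, 77.8 and 39.5 in p300-ifKOs. The log2 fold changes were −0.62 (SE 0.46) and −0.52 (SE 0.49), and values overlapped between groups for both. Pcdha5 had 52.7, 65.1 and 63.3 normalized counts in controls and 15.0, 60.1 and 33.8 in p300-ifKOs, with a log2 fold change of −0.72 (SE 0.45). Pcdha1 had 13.9, 17.9 and 36.7 normalized counts in controls and 3.22, 20.3 and 5.79 in p300-ifKOs, with a log2 fold change of −1.20 (SE 0.73) and a 95% interval of −2.64 to 0.23 that spans zero. For Pcdha7 the groups did not overlap, with 43.7, 38.9 and 38.8 normalized counts in controls and 9.67, 36.2 and 32.8 in p300-ifKOs, although p300-ifKO replicate 2 fell only just short of the lowest control. Without p300-ifKO replicate 1 the fold changes were −0.23 for Pcdha12, −0.13 for Pcdha9, −0.36 for Pcdha5 and −0.80 for Pcdha1.

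Beta genes varied least between mice. Pcdhb9 (37400855 to 37403909) had 466, 477 and 421 normalized counts in controls and 398, 505 and 435 in p300-ifKOs, and its log2 fold change of −0.027 (SE 0.16) had a 95% interval of −0.34 to 0.28. Pcdhb17 had 399.7, 417 and 428 normalized counts in controls and 266, 436 and 403 in p300-ifKOs, with a log2 fold change of −0.17 (SE 0.21). In p300-ifKO replicate 1 it lay below the other 5 mice. Pcdhb22 (37517871 to 37524479) had 279, 291 and 329 normalized counts in controls and 227, 265 and 279 in p300-ifKOs, without overlap between groups and with a log2 fold change of −0.22 (SE 0.17). Pcdhb21, whose last exonic bases overlap those of Pcdhb22, had 32.8, 46.2 and 66.3 normalized counts in controls and 20.4, 34.5 and 28.9 in p300-ifKOs. The log2 fold change of −0.79 (SE 0.40) reached an unadjusted p of 0.0502 in DESeq2 and 0.0461 in edgeR. Without p300-ifKO replicate 1 the fold changes were 0.046 for Pcdhb9, 0.015 for Pcdhb17, −0.14 for Pcdhb22 and −0.61 for Pcdhb21. In all, 4 of the 53 members with a mean of at least 10 lay lower in every p300-ifKO mouse than in every control mouse (Pcdha7, Pcdhb22, Pcdhga5 and Pcdhgb8), beside 3.37% of genes, and 0 lay higher, beside 4.09%. The adjusted p of every member named with a fold change was 0.991 or 0.997 in DESeq2.

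Of the 14 neighbours of the clusters on the chromosome, 3 had their lowest value in p300-ifKO replicate 1. That was so for 37.8% of the 17071 genes with a mean of at least 10. The neighbours were not matched to the members in exonic length. In this list 0 had an adjusted p under 0.05 in DESeq2 and 0 an unadjusted p under 0.05. The log2 fold change was above zero for 10 and below zero for 4, beside 54.7% of all genes tested below zero. Its median was 0.13, or 0.11 with length and GC offsets. Taf7, the intronless gene of a subunit of the transcription factor TFIID that lies between the beta and gamma clusters, had 213, 196 and 217 normalized counts in controls and 166, 194 and 203 in p300-ifKOs and a log2 fold change of −0.15 (SE 0.18), or −0.075 without p300-ifKO replicate 1. Slc25a2, a mitochondrial carrier gene beside it, had a highest value of 8.59 normalized counts and a log2 fold change of 0.95 (SE 1.07), too few reads to place it.

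The genes known to act on the promoters of the clusters were read as a list of 25 that held CTCF, cohesin and its loaders, DNA methylation enzymes and repressors. In DESeq2, 0 of 25 had an adjusted p under 0.05 and 0 an unadjusted p under 0.05. The log2 fold change was below zero for 23, beside 50.7% of genes with a mean of at least 10. Its median was −0.15, with a range of −0.34 to 0.17, and with length and GC offsets the median was −0.020. The lowest library was p300-ifKO replicate 1 for 21, beside 37.8% of genes with a mean of at least 10. Ctcf, the insulator protein, had 2077, 2137 and 2102 normalized counts in controls and 1559, 2248 and 1963 in p300-ifKOs and a log2 fold change of −0.13 (SE 0.16). Rad21, a cohesin subunit, had 3108, 3142 and 3059 normalized counts in controls and 2099, 3098 and 2871 in p300-ifKOs and −0.21 (SE 0.17). Smchd1, a chromosomal protein with a known part in silencing protocadherin clusters, had 921, 991 and 1291 normalized counts in controls and 657, 982 and 891 in p300-ifKOs and −0.34 (SE 0.21), where DESeq2 gave an unadjusted p of 0.100. For all 3 genes the values of p300-ifKO replicate 2 lay within the range of the controls or above it, and without p300-ifKO replicate 1 the fold changes were −0.0012 for Ctcf, −0.058 for Rad21 and −0.19 for Smchd1.

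Of 25 effectors and partners of clustered protocadherins, such as focal adhesion kinases, the WAVE complex and processing proteases, 0 had an adjusted p and 0 an unadjusted p under 0.05 in DESeq2, and the median log2 fold change was −0.059. Wasf3, a WAVE family member, had 3238, 3535 and 3700.2 normalized counts in controls and 1875, 3501 and 2644 in p300-ifKOs and a log2 fold change of −0.38 (SE 0.22), or −0.19 without p300-ifKO replicate 1. The 12 non-clustered protocadherins, which are encoded singly elsewhere in the genome, had a median log2 fold change of −0.27, or −0.13 with length and GC offsets. It was below zero for 11, beside 50.7% of genes with a mean of at least 10. In DESeq2, 0 had an adjusted p under 0.05. At an unadjusted p under 0.05 there were 2, Pcdh8 and Pcdh19, both lower, beside 1.32% of all genes tested in either direction and 0.546% lower. Pcdh8, known as an activity-regulated adhesion protein, had 1390.0, 1463 and 1384 normalized counts in controls and 1093, 1221 and 1254 in p300-ifKOs, with no overlap between groups, a log2 fold change of −0.25 (SE 0.12) and an adjusted p of 0.991 in DESeq2. In p300-ifKO replicate 1 the median log2 ratio to the 6-library mean was −0.51 for the non-clustered list, −0.45 for the regulators, −0.045 for the effectors and 0.010 for the neighbours. Without that library the median log2 fold change was −0.14 for the non-clustered list, −0.021 for the regulators, −0.016 for the effectors and 0.064 for the neighbours.

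Markers of other cells were read beside these values. Summed over 6 markers each, oligodendrocyte genes ranged from 105543 to 143687 normalized counts in control and from 114366 to 146450 in p300-ifKO mice, with p300-ifKO replicate 1 at the highest value. Microglia genes ranged from 6286 to 6797 and from 6962 to 7896, with p300-ifKO replicate 1 again highest and the groups not overlapping, although P2ry12 and Cx3cr1, 2 of the 6, were at their lowest in that library. The microglia separation depended on C1qa, with 1023, 1085 and 911 normalized counts in controls and 1885, 1003 and 1381 in p300-ifKOs. Astrocyte sums did not overlap either, with 41315 to 43535 in control and 38984 to 39904 in p300-ifKO mice. The astrocyte separation depended on Slc1a3, with 19092, 21391 and 20593 normalized counts in controls and 16005, 18413 and 17019 in p300-ifKOs. Of the 6 astrocyte markers, 2 had a log2 fold change above zero, among them Gfap (0.17). Excitatory neuron genes had a median log2 ratio of −0.15 in p300-ifKO replicate 1, and interneuron and endothelial sums there were 23019 and 4763, against 21745 to 24956 and 4866 to 5173 in controls. Choroid plexus genes ranged from 749 to 3777 in control and from 1390 to 5479 in p300-ifKO mice, and genes of the adjoining thalamus and striatum from 1872 to 1998 and from 1741 to 2562. None of the 48 markers had an adjusted p under 0.05 in DESeq2, beside 0.0061% of all genes tested. At an unadjusted p under 0.05 there were 2, 1 each in the astrocyte and microglia lists, beside 1.32% of all genes tested. The part of these shifts, and of the length trend, in the low alpha and gamma values of p300-ifKO replicate 1 was not tested.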

How the data were processed

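Hippocampal RNA of 6 mice was sequenced as single-end reads of 50 bases. Per the labels and the methods of the study, the authors trimmed reads (Trim Galore 0.6.4, after FastQC 0.11.8), aligned them with STAR 2.6.1 to GRCm38, dropped alignments of low mapping quality and assigned the rest to gene exons with Rsubread. The deposited table holds these raw counts per gene, with no normalization. Strand and overlap settings were not given in the sources used here and were read from the counts of overlapping genes. Total counts per library were 23151568 to 28433823. Symbols, coordinates and exons came from GENCODE M21. Own sequence is exonic sequence outside all other genes on either strand.

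The members and gene lists were chosen with earlier results of these data known. Groups came from the sample titles. All genes were fitted together in DESeq2 1.42.0 (R 4.3.3; two-sided Wald test, no covariate, default filtering), and p-values were adjusted by Benjamini-Hochberg over the 32773 genes tested, threshold 0.05. The edgeR 4.0.16 quasi-likelihood test (TMM factors, filterByExpr) was run beside it. The p-values weigh the difference between groups against the spread between these mice, which each test moderates with information from all genes. Per-library log2 ratios used a pseudocount of 0.5. Intervals are 95%.

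Fold changes are given for the C-type members, in each other subfamily the 2 members with the highest level per kilobase and the 2 with the smallest unadjusted p among members with a mean normalized count of at least 10, and selected neighbours, regulators and the top gene of other lists. Pcdha7, Pcdhgb1, Pcdhga12, Pcdh19 and members named only for a level or an extreme value were named after their values were seen. Lists were regulators, effectors, non-clustered protocadherins, neighbours and 8 lists of cell type markers. Alternatives were edgeR, a floor of 10 counts in 3 libraries, TMM factors in DESeq2, independent or Cook filtering off, a replicate block, 1 surrogate variable (sva 3.50.0), length and GC offsets (mgcv 1.9.3), leaving out each library, whole exonic length and CPM. The fits were also run on simulated counts, drawn gene by gene without a length trend. That run therefore cannot show how the fits behave on libraries with such a trend.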

Additional observations from a re-analysis of the deposited data

How the results depend on the processing

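No member had an adjusted p under 0.05 in DESeq2 or edgeR under any alternative except the fit without p300-ifKO replicate 2. With each library left out in turn, between 0 and 6 members and between 2 and 926 of all genes passed, and the lists gave 0 to 1 regulators, 0 to 2 effectors, 0 to 2 non-clustered protocadherins and 0 to 1 neighbours, in each case above 0 only without p300-ifKO replicate 2. With 1 surrogate variable, log2 fold changes turned above zero for Pcdhac1 (0.030), Pcdhac2 (0.038), Pcdhb9 (0.045), Pcdhb17 (0.038), Pcdhga2 (0.036), Pcdhgb6 (0.083) and Ctcf (0.019). With single libraries left out, Pcdhb9 ranged from −0.12 (without p300-ifKO replicate 2) to 0.046 (without p300-ifKO replicate 1), with 0.010 without control replicate 2, and Pcdhb17 from −0.30 to 0.015 without the same 2 p300-ifKO libraries. The cause was not tested. Without p300-ifKO replicate 2, Wasf3 also passed in DESeq2, with a log2 fold change of −0.62 and an adjusted p of 0.0197. Ep300 passed in the same fit (−1.36, adjusted p 0.00037) and with 1 surrogate variable (−0.48, adjusted p 0.0013), both in DESeq2. It did not pass with a replicate block (−1.06, adjusted p 0.134) or with length and GC offsets (−0.83, adjusted p 0.907), again in DESeq2. Without p300-ifKO replicate 1 its log2 fold change was −0.66. Replicate numbers are shared between the groups, as are the numbers in the original library names. The deviations of same-numbered mice from their group means correlated with r = 0.27, −0.28 and 0.14 for numbers 1, 2 and 3. These deviations include the length trend, so r cannot show whether the mice were paired, and the labels do not say. The main fit took the mice as unpaired. A replicate block gave 4 genes (0.0122%) and 0 members at an adjusted p under 0.05 in DESeq2, 11 of 57 members at an unadjusted p under 0.05, beside 1.34% of genes, and medians of −0.81 for alpha, −0.13 for beta and −0.61 for gamma members. Depth limits the alpha cluster most, with 224 reads over all its members in p300-ifKO replicate 1.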

Other observations

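The genes whose levels followed each cluster sum most closely over the 6 libraries were searched among 12221 genes with a mean of at least 100 normalized counts. For the alpha sum they were Sdk2, itself a homophilic adhesion gene of the sidekick family, Kdelc1 and Atp2c1. For the gamma sum they were Socs7, Gm37459 and Atg9a, and for the beta sum Mon1b, Atp2b1 and Mppe1. Pearson's r was at least 0.998 for each. It is a description over 6 libraries that share the normalization and the length trend. In p300-ifKO replicate 1, the log2 ratio to the 6-library mean was between −0.68 and −0.46 for the 3 genes alike to alpha, between −1.15 and −0.73 for those alike to gamma and between −0.61 and −0.16 for those alike to beta, beside medians of −1.74, −1.30 and −0.42 for the members.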
